A study of Mus musculus with 8 samples.

Results

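The 9 chemoattractant receptors described here, which steer T cells into, through and out of tissue, were followed across the T cell subsets of the mouse colon: Ccr2, Ccr7, Ccr9, Cxcr3, Cxcr4, Cxcr5, Cxcr6, S1pr1 and Gpr15. They are 9 of the 31053 gene rows of the UMI tables, and were taken by symbol. A UMI (unique molecular identifier) counts 1 captured transcript molecule. The libraries came from the colonic lamina propria of C57BL/6 mice aged 10 to 12 weeks, wildtype or carrying an amino acid substitution. Sample titles call the mutant S203AKI and the series design text names it S182A. Both names are given here as they stand, and S203AKI is used below. Mice of each genotype were either left on regular water for 10 days or given 2% dextran sulfate sodium (DSS, an agent that damages the lining of the colon) for 7 days and then regular water for 3 days, with harvest on day 10. Each of the 4 groups (wildtype untreated, S203AKI untreated, wildtype DSS, S203AKI DSS) had 2 libraries, which the series design text describes as independent biological replicates. CD4 cells were enriched on magnetic columns and made into droplet-based 3' single-cell libraries.

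Chemokine receptors and the sphingosine 1-phosphate receptor S1pr1 are G protein-coupled receptors that direct cell movement along gradients of their ligands. Ccr7 and S1pr1 belong to recirculating cells: Ccr7 follows Ccl19 and Ccl21 into lymph nodes and lymphatic vessels, and S1pr1 reads the sphingosine 1-phosphate of blood and lymph and draws cells out. Cxcr5 follows Cxcl13 into B cell follicles. Ccr9 and Gpr15 are known as gut-homing receptors, Ccr9 for the small intestine through Ccl25 and Gpr15 for the large intestine. Ccr2 and Cxcr3 respond to inflammatory chemokines, Cxcr6 binds Cxcl16, and Cxcr4 binds Cxcl12.

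The authors' list of kept cells names 27420 barcodes, each with at least 1 Cd4 UMI, at least 400 genes and under 20% mitochondrial UMIs. Clustering of these cells was done without the 9 receptors and without all other chemokine and sphingosine 1-phosphate receptors, so that these genes took no part in forming the clusters. It placed 20736 cells in 10 T cell clusters of 21, with 1780 to 3752 T cells and 6177544 to 14930677 UMIs per library. The remaining kept cells were macrophage-like, fibroblast-like and other cells. Among T cells, 2 clusters were Treg-like (led by Foxp3, Il10 and Itgae, and by Il1rl1 and Klrg1), 2 were Th17-like (Il17a and Il17f), and single clusters were Th1-like (Ccl5, Gzma, Ifng), naive-like (Igfbp4, Lef1) and proliferating (Birc5, Ccna2). The Tfh-like cluster had the highest score for follicular helper markers, but none of those markers was among its 10 leading genes, which included Hbb-bs and Sostdc1 besides Cxcr5. At a coarser resolution it merged with the naive-like cells. Another 2 T cell clusters stayed unnamed. Doublets were not called here. No T cell cluster took more than 28.1% of its cells from 1 library, and no pair of libraries shared more than 0.258% of its kept barcodes. In the S203AKI untreated library 1, Hspa1a, a heat-shock gene, stood at 1380 CPM (UMIs scaled to a common total) in T cells against 51.8 to 379 CPM in the other libraries.

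Each receptor had its own distribution over the T cell classes, given here as CPM of the UMIs summed per library, mean ± SD over 8 libraries. The levels are a description without a test. The recirculation receptors were highest in naive-like cells. Ccr7 stood at 551 ± 71.7 CPM there, 285 ± 113 in Tfh-like, 175 ± 49.4 in Treg-like, 105 ± 32.9 in proliferating, 66.3 ± 30.6 in Th1-like and 48.2 ± 18.5 in Th17-like cells. In 8 of 8 libraries naive-like cells were above Tfh-like, and Tfh-like above Treg-like. Th1-like and Th17-like cells could not be ordered, with 5 of 8 libraries higher in Th1-like. S1pr1 was at 350 ± 48.7 CPM in naive-like cells and 98.1 ± 10.9 in Tfh-like cells (8 of 8 libraries). It was lowest in Th17-like cells, at 40.1 ± 14.4 CPM, below Treg-like cells at 65.2 ± 13.5 in 8 of 8. Between these lay Th1-like (75.1 ± 19.9) and proliferating cells (68.6 ± 19.9), which did not separate from each other (5 of 8).

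The follicle receptor Cxcr5 was at 71.5 ± 15.8 CPM in the Tfh-like cluster, above naive-like cells at 19.5 ± 6.42 in 8 of 8 libraries. It was between 2.73 and 10.8 CPM in the Treg-like, proliferating, Th1-like and Th17-like classes. With coarser clustering the merged naive-like class held the highest Cxcr5, 51.6 ± 11.7 CPM.

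The Treg-like class had the highest mean of Ccr2, Ccr9 and Gpr15 over 8 libraries. Ccr2 stood at 587 ± 105 CPM in Treg-like cells, 295 ± 41.2 in Th17-like and 200.2 ± 53.2 in Th1-like cells, in that order in 8 of 8 libraries for both steps. Proliferating cells were at 172 ± 63.5, naive-like cells at 59.9 ± 24.4 and Tfh-like cells at 28.5 ± 16.7 CPM. Within Treg-like cells Ccr2 was not even. The Foxp3 and Il10 cluster held 732 ± 111 CPM and the Il1rl1 and Klrg1 cluster 284 ± 104, higher in the former in 8 of 8 libraries. Ccr9 divided the same clusters, 44.7 ± 31.7 against 12.6 ± 8.25 CPM (8 of 8). Gpr15 did not, at 11.1 ± 9.06 and 10.3 ± 9.20 CPM (4 of 8 each way). Over classes, Ccr9 was at 34.8 ± 23.5 CPM in Treg-like and 25.3 ± 17.5 in proliferating cells (6 of 8 higher in Treg-like), 15 ± 6.5 in Th17-like, 14.4 ± 8.94 in Th1-like, 5.62 ± 5.04 in naive-like and 2.00 ± 1.46 in Tfh-like cells. The lead of Treg-like cells in Ccr9 was in the DSS libraries, at 49.1 CPM against 34.2 in proliferating, 12.9 in Th17-like and 8.56 in Th1-like cells. In untreated libraries the means were 20.4, 16.4, 17.1 and 20.3 CPM in these classes. Gpr15 was at 10.8 ± 6.93 CPM in Treg-like cells, above Th1-like cells (3.92 ± 4.19) in 7 of 8 libraries, and at 1.36 to 3.88 CPM in the other classes. It rests on 258 UMIs in all T cells, so no order below the Treg-like class can be read.

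Cxcr3, the receptor that the Th1 factor T-bet is known to turn on, was shared by 2 classes: 54.6 ± 15.4 CPM in Th1-like and 53.5 ± 8.82 in Treg-like cells, with 4 of 8 libraries each way. It was lowest in naive-like cells at 20.1 ± 7.53 CPM. The Th17-like clusters differed in it. The Il17f cluster that also had Ifng among its 10 leading genes held 49.6 ± 16.2 CPM, and the Ccl20 and Il22 cluster 20.6 ± 8.30, with 8 of 8 libraries higher in the former.

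Cxcr6 was highest in Th17-like cells, as was the mean of Cxcr4 over 8 libraries. Cxcr6 reached 604 ± 152 CPM in Th17-like cells, 288 ± 57.0 in Th1-like and 147 ± 36.5 in Treg-like cells (8 of 8 libraries at both steps), 131 ± 38.1 in proliferating, 42.5 ± 20.4 in naive-like and 18.7 ± 6.62 in Tfh-like cells. This order is close to the reverse of that of Ccr7. Cxcr4 was at 170 ± 76.4 CPM in Th17-like, 149 ± 88.5 in Th1-like, 142 ± 45.2 in Treg-like and 142 ± 46.9 in Tfh-like cells. Of these, Th17-like exceeded Th1-like cells in 7 of 8 libraries. The order depended on treatment. In untreated libraries the Cxcr4 means of Treg-like, Th17-like, Tfh-like and Th1-like cells were 109.5, 106, 106 and 76.9 CPM, and after DSS 175, 234, 178 and 220.3 CPM. Naive-like cells were lowest for Cxcr4, at 47.3 ± 23.9 CPM (below proliferating cells in 8 of 8). The Ccl20 and Il22 cluster of Th17-like cells had more of both than the other Th17-like cluster, 684 ± 166 against 449 ± 129 CPM for Cxcr6 and 193 ± 98.5 against 131 ± 59.0 for Cxcr4, and less S1pr1, 25.4 ± 8.68 against 71.8 ± 21.5 CPM, each in 8 of 8 libraries.

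**Figure D1:**
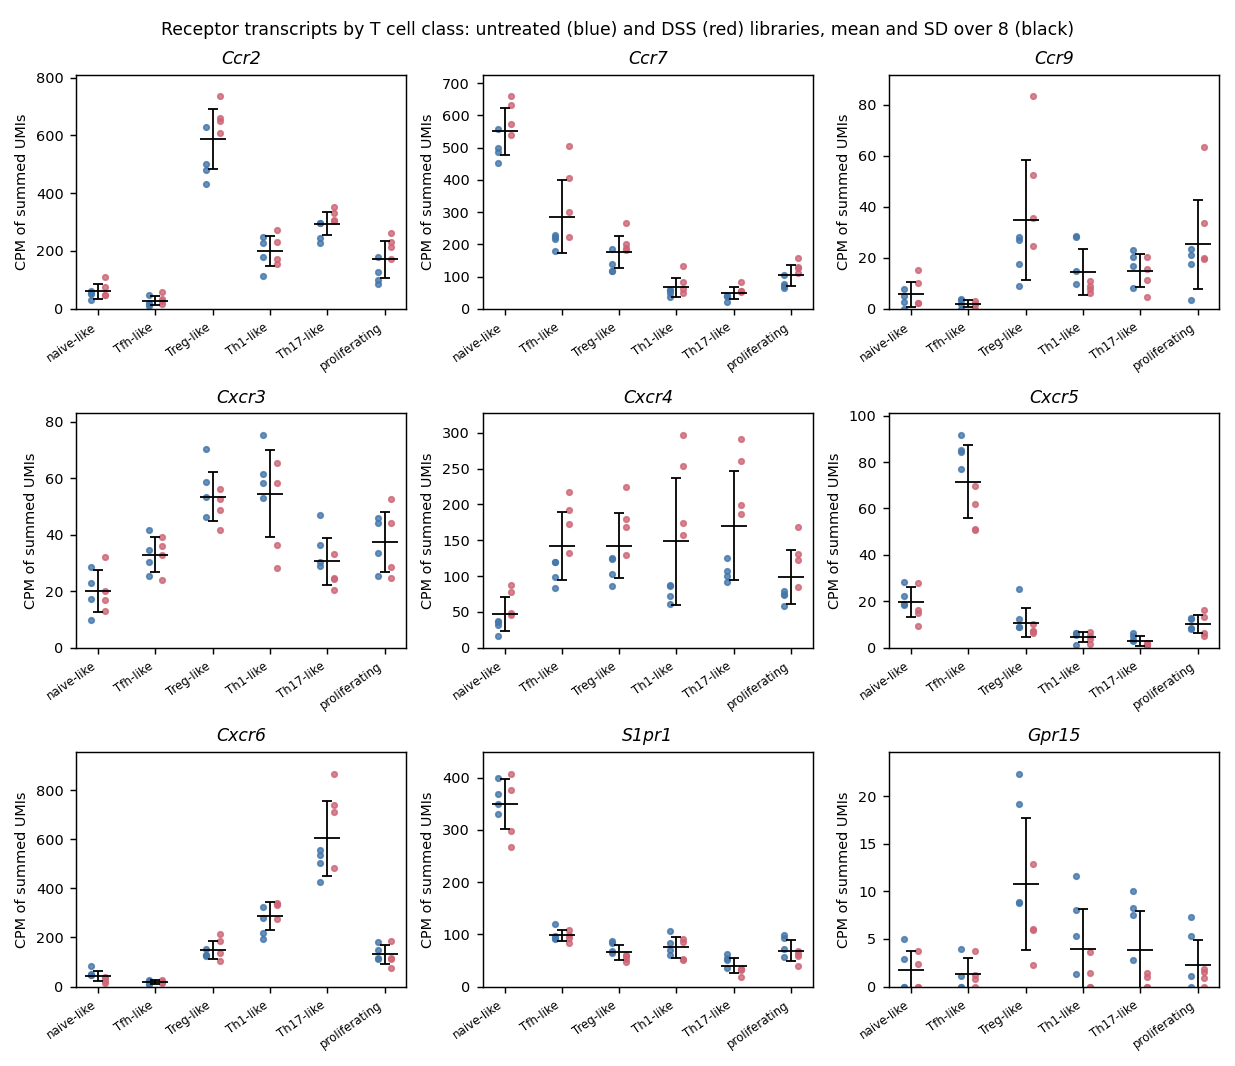
Level of each receptor (CPM of summed UMIs, linear axes from 0) in 6 T cell classes; points are the 4 untreated (blue) and 4 DSS (red) libraries, black lines the mean and SD over 8, cut at 0 where the SD exceeds the mean (Gpr15). Ccr7 and S1pr1 stand highest in naive-like cells, Cxcr5 in Tfh-like, Ccr2 in Treg-like and Cxcr6 in Th17-like cells.

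The genes lie on 6 chromosomes (GRCm38, GENCODE gene models). Ccr9 (9:123678439-123784330), Cxcr6 (9:123806475-123811760) and Ccr2 (9:124101950-124113557) neighbour each other on chromosome 9. Cxcr5 (9:44511787-44561877) is farther off on the same chromosome. The others are Ccr7 (11:99144196-99155077), Cxcr3 (X:101731535-101734269), Cxcr4 (1:128588199-128592293), S1pr1 (3:115710433-115715072) and Gpr15 (16:58717433-58719070). Ccr9 overlaps Lztfl1 and Slc6a20a, Cxcr5 overlaps Bcl9l, Cxcr6 overlaps Fyco1 and Gpr15 overlaps Cpox, each on the opposite strand. Ccr9 also overlaps the lincRNA Gm17200 and the pseudogene Gm17020 on its own strand. Whether counting used strand is not given in the sources used here, so the levels of these 4 receptors are uncertain to that extent, and strand would not divide Ccr9 from the latter pair. The promoters of Cxcr6 and Cxcr4 are shown because Cxcr6 had the widest ratio between class means (Th17-like over Tfh-like cells, the latter no higher in Cxcr6 than fibroblast-like barcodes, so the ratio is no measure of expression) and Cxcr4 was called after DSS in the most classes. Both are from RefSeq on GRCm38.p6, end before the gene's start and run 5' to 3' on the gene's strand: Cxcr4 is chr1:128592300-128592549 (minus strand) and Cxcr6 is chr9:123806227-123806474 (plus strand, inside Fyco1). Capitals mark matches on either strand to a KLF core (CACCC), a GC box (GGGCGG) or a TATA box (TATAAA).
Cxcr4: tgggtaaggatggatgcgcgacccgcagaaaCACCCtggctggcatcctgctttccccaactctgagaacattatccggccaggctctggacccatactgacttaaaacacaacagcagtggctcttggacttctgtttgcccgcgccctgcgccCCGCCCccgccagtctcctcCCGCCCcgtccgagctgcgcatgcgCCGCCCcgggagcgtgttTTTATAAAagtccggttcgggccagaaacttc
Cxcr6: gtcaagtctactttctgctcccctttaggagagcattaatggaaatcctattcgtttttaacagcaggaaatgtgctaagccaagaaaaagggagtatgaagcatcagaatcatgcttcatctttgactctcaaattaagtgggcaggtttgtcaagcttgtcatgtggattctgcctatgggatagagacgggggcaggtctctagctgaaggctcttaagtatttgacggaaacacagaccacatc
The Cxcr4 window held 1 KLF core, 3 GC boxes and a TATA box that matched on both strands with 4 bases shared. These motifs occur in 52.0%, 32.7% and 12.4% of 32851 RefSeq promoters (the 250 bases before each start). The Cxcr6 window held none of them. Cxcr4 had 19 CpG dinucleotides, more than 80.3% of promoters had, and Cxcr6 had 3, against a median of 6. A motif match is a description of letters and the windows of Ccr7, Cxcr5 and S1pr1 were not analysed here.

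Subset differences were also tested without clusters, by splitting the CD4 T cells of each library into those with and those without a UMI of a subset gene (edgeR, library as block, adjusted over all genes tested). Cells with Foxp3, the Treg factor, had more Ccr2, Ccr9 and Gpr15 and less Cxcr6 and S1pr1. Of the 9 receptors, 8 were called at an adjusted p under 0.05, where 36.4% of all genes were. Higher with Foxp3 were Ccr2 (log2 fold change 1.17, SE 0.055, edgeR adjusted p = 1.71e-14), Ccr9 (1.34, SE 0.177, adjusted p = 1.28e-06), Gpr15 (1.20, SE 0.207, adjusted p = 5.49e-05) and Ccr7 (0.16, adjusted p = 0.036). Lower were Cxcr6 (-0.92, SE 0.065, adjusted p = 3.15e-11), S1pr1 (-0.63, adjusted p = 2.84e-06), Cxcr5 (-0.69, adjusted p = 6.01e-05) and Cxcr4 (-0.29, adjusted p = 0.00223), and Cxcr3 (0.21) was not called. Ccr7 was called in 3 of 12 alternatives. With cells thinned to 1000 UMIs, Ccr2, Ccr9, Cxcr6 and S1pr1 were still called, while Ccr7 (adjusted p = 0.833), Cxcr4 (0.894) and Cxcr5 (0.334) were not, and Gpr15 fell below the filter.

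Cells with an Il17a UMI were marked by Cxcr6 and by little of the recirculation receptors. Here 7 of 9 receptors were called, against 23.1% of all genes. Cxcr6 was 2.66-fold higher (log2 1.41, SE 0.069, edgeR adjusted p = 5.66e-15) and Cxcr4 slightly higher (0.16, adjusted p = 0.00961). Cxcr5 (-1.44), Ccr7 (-0.96), Gpr15 (-0.78, adjusted p = 0.0187), S1pr1 (-0.76) and Cxcr3 (-0.59) were lower, and Ccr2 (0.11) and Ccr9 (-0.03) were not called. Cells with an Ifng UMI had a like profile on 5 of 9 receptors (background 17.7%): Cxcr6 (0.86) and Cxcr4 (0.25) higher, and Cxcr5 (-1.18), Ccr7 (-0.79) and S1pr1 (-0.70) lower. Not called for Ifng were Cxcr3 (-0.11), Ccr2 (-0.11), Ccr9 (-0.34) and Gpr15 (-0.47). The Il17a call of Gpr15 was lost in DESeq2 (0.13) and without wildtype DSS library 1 (0.118) or S203AKI DSS library 1 (0.0648), and that of Cxcr4 with no filter (0.0542), as was the Ifng call of Cxcr4 with thinned cells (0.0709). The difference between the Il17a and Ifng splits was not tested. These splits used 146 to 961 cells with a Foxp3 UMI per library, 277 to 1213 with an Il17a UMI and 451 to 747 with an Ifng UMI.

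**Figure D2:**
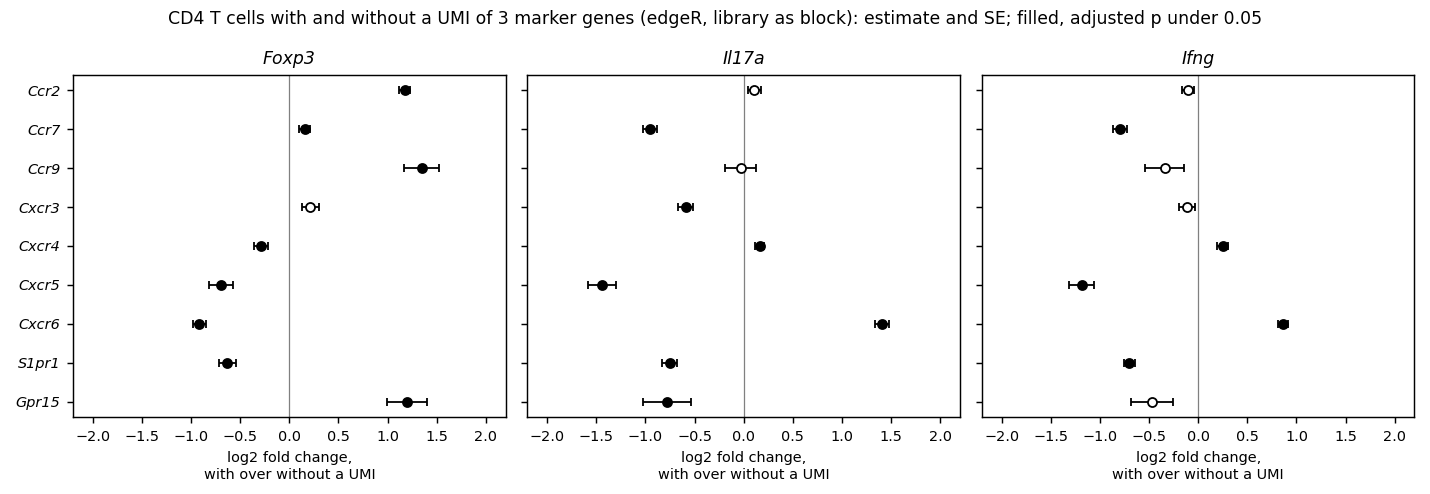
Log2 fold change of each receptor in CD4 T cells with over those without a UMI of Foxp3, Il17a or Ifng (points, edgeR with library as block; bars, SE; filled, adjusted p under 0.05). Cxcr6 is at 1.41 for Il17a, 0.86 for Ifng and -0.92 for Foxp3, and Ccr2 is at 1.17 for Foxp3.

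In single cells the receptors were sparse. After thinning each T cell to 1000 UMIs, which left out 597 of 20736 cells, Ccr2 was seen in 19.2 ± 4.20% of T cells (mean ± SD, n = 8 libraries), Cxcr6 in 18.3 ± 5.08%, Cxcr4 in 12.8 ± 4.47%, Ccr7 in 10.3 ± 2.79%, S1pr1 in 7.78 ± 0.754%, Cxcr3 in 4.14 ± 0.627%, Cxcr5 in 1.56 ± 0.689%, Ccr9 in 1.46 ± 0.471% and Gpr15 in 0.449 ± 0.232%. Without thinning the shares were 34.0% for Ccr2, 33.9% for Cxcr6, 27.5% for Cxcr4, 20.1% for Ccr7, 18.0% for S1pr1, 10.7% for Cxcr3, 4.29% for Cxcr5, 3.55% for Ccr9 and 1.25% for Gpr15. Fibroblast-like barcodes without a Cd4 UMI were taken as the background. Whether they transcribe any of the 9 receptors, S1pr1 among them, was not tested. Thinned to 1000 UMIs, they gave 2.42% for Cxcr6, 1.56% for S1pr1, 1.54% for Ccr2 and 1.45% for Cxcr4. The rest were under 1% (0.842% Ccr7, 0.269% Cxcr3, 0.232% Ccr9, 0.211% Cxcr5, 0.00664% Gpr15). Their median depth before thinning was 3956.5 to 7069 UMIs per library, against 1943.5 to 2879 in T cells. In T cells pooled over classes, the mean share of each of the 9 was above that background. By class this did not hold throughout: Cxcr6 was at 2.42% in naive-like and 1.01% in Tfh-like cells, at or below it, and Cxcr5 in Th17-like (0.223%), Ccr9 in Tfh-like (0.255%) and Ccr2 in Tfh-like cells (1.81%) were close to it. Levels of these receptors in these classes are read as background. At the high end, Cxcr6 was seen in 40.6% of Th17-like cells, Ccr7 in 41.5% and S1pr1 in 29.1% of naive-like cells, Ccr2 in 39.9% of Treg-like cells and Cxcr5 in 6.68% of Tfh-like cells.

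The receptors paired unevenly within cells at this depth, described here without a test because the same cells and depth enter each pair. Of cells with Ccr7, 16.3 ± 4.23% also had S1pr1, against 6.88 ± 0.674% of cells without (higher in 8 of 8 libraries). Of cells with Cxcr6, 3.99 ± 1.76% had Ccr7 against 11.7 ± 2.81% without, and 3.40 ± 0.780% had S1pr1 against 8.76 ± 0.791%, lower in 8 of 8 libraries for both. Cxcr6 was thus seen less often in the same cells as Ccr7 or S1pr1 at this depth. Ccr2 went with tissue receptors: Cxcr6 was in 25.5 ± 6.14% of cells with Ccr2 and 16.7 ± 4.93% of those without, and Ccr9 in 2.80 ± 1.15% against 1.12 ± 0.350% (8 of 8 for both). No cell had both Cxcr5 and Gpr15, of 295 with Cxcr5 and 83 with Gpr15, too few to show whether the pair is avoided.

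After DSS, CD4 T cells as a whole carried more Ccr2, Ccr7 and Cxcr4 and less Cxcr5, S1pr1 and Gpr15. Averaged over the genotypes (4 against 4 libraries), 6 of 9 receptors were called, 3 in each direction, where 18.3% of 11063 genes were called (9.1% higher and 9.23% lower). The median log2 fold change was 0.14 over the 9 receptors and 0.01 over all genes. In sums over cells, a change in the number of cells of a type and a change in RNA per cell cannot be told apart.

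Ccr2, a receptor for the monocyte chemokines Ccl2 and Ccl7, was at 266.5, 209, 178 and 146 CPM in the untreated libraries (wildtype 1 and 2, S203AKI 1 and 2) and 286, 363, 340 and 321 CPM after DSS in the same order of groups. The untreated and DSS libraries did not overlap, and Ccr2 rose by 0.66 on the log2 scale (SE 0.109, edgeR adjusted p = 0.00708). Cxcr4, the Cxcl12 receptor, was at 94.9, 75.8, 93.9 and 96.9 CPM untreated and 127, 223, 168 and 183 CPM after DSS. Its groups did not overlap either, and it had the largest rise of the 9 (0.88, SE 0.153, adjusted p = 0.008). Ccr7 was at 114, 122, 135 and 126 CPM untreated and 170, 201, 142 and 234 CPM after DSS, again without overlap (0.52, SE 0.138, adjusted p = 0.0304). Thus 3 of 9 receptors had every DSS library above every untreated one, where 17.4% of genes did.

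Cxcr5 was at 14.2, 19.9, 21.5 and 30.2 CPM untreated and 15.1, 14.8, 8.77 and 9.44 CPM after DSS. Both S203AKI libraries after DSS lay below all others and the wildtype values overlapped (-0.92, SE 0.153, edgeR adjusted p = 0.00724). S1pr1, the egress receptor, was at 83.6, 102, 123 and 103 CPM untreated and 82.6, 75.4, 83.8 and 82.0 CPM after DSS, a narrow range that met only the lowest untreated library (-0.42, SE 0.096, adjusted p = 0.0183). Gpr15 was at 3.87, 8.27, 4.86 and 6.19 CPM untreated, from 24, 54, 30 and 41 UMIs. After DSS it was at 5.26, 2.48, 2.51 and 1.21 CPM, from 55, 18, 18 and 18 UMIs, which overlapped through the first wildtype DSS library (-1.22, SE 0.348, adjusted p = 0.0377). None of the 9 had every DSS library below every untreated one, where 8.04% of genes did.

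The remaining receptors were not called. Ccr9 was at 18.2, 12.2, 18.0 and 11.3 CPM untreated and 15.2, 28.8, 14.3 and 36.2 CPM after DSS, with 1 high and 1 low DSS library in each genotype (log2 0.60). Cxcr6 was at 259, 220, 167 and 230 CPM untreated and 250, 210, 408 and 150 CPM after DSS, so that the DSS libraries held both the highest and the lowest value (0.14). Leaving out S203AKI DSS library 1 turned this to -0.30. That library also had the most Th17-like cells, 32.3% of its T cells, and S203AKI DSS library 2 the fewest, 5.6%. With each cluster weighted by the same share in every library, Cxcr6 was at 318 and 186 CPM in these 2 libraries. The part of the mix in Cxcr6 was not tested. Ccr9 and Ccr7 were higher in the DSS library with the larger Th1-like share in each genotype (24.8% against 12.1% in wildtype, 27.2% against 8.6% in S203AKI). With the same weights the DSS libraries, in the same order, stood at 14.1, 26.1, 14.2 and 28.2 CPM for Ccr9. For Ccr7 they stood at 164, 189, 164 and 231 CPM. A part of the mix in these 2 receptors was not tested either. Cxcr3 was at 45.2, 45.2, 47.9 and 36.5 CPM untreated and 37.3, 40.8, 35.8 and 42.9 CPM after DSS, which overlapped (-0.23).

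Several of these calls depended on single libraries. With any library left out, fewer genes were called over the whole table as well, and the share of all genes in each refit is not given here. Without the untreated wildtype library 2, every call was lost. The log2 values were then 0.58 for Ccr2, 0.81 for Cxcr4, 0.54 for Ccr7, -0.79 for Cxcr5, -0.335 for S1pr1 and -0.88 for Gpr15. Without S203AKI untreated library 1 or wildtype DSS library 2, 3 were called (Ccr2, Cxcr4 and Cxcr5), and without S203AKI untreated library 2, 4. Ccr7 and Gpr15 were each lost without any of 5 libraries (adjusted p 0.0798 to 0.111 and 0.0742 to 0.198). When T cells were instead taken from all barcodes by T cell receptor and Cd3 UMIs, Ccr2, Ccr7 and Cxcr4 were called and the 3 lower receptors were not (adjusted p = 0.0784 for Cxcr5, 0.0519 for S1pr1, 0.362 for Gpr15). With cells thinned to 1000 UMIs, Ccr2, Cxcr4, Cxcr5 and Gpr15 were called, and Ccr7 (0.0578) and S1pr1 (-0.25, adjusted p = 0.142) were not.

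**Figure D3:**
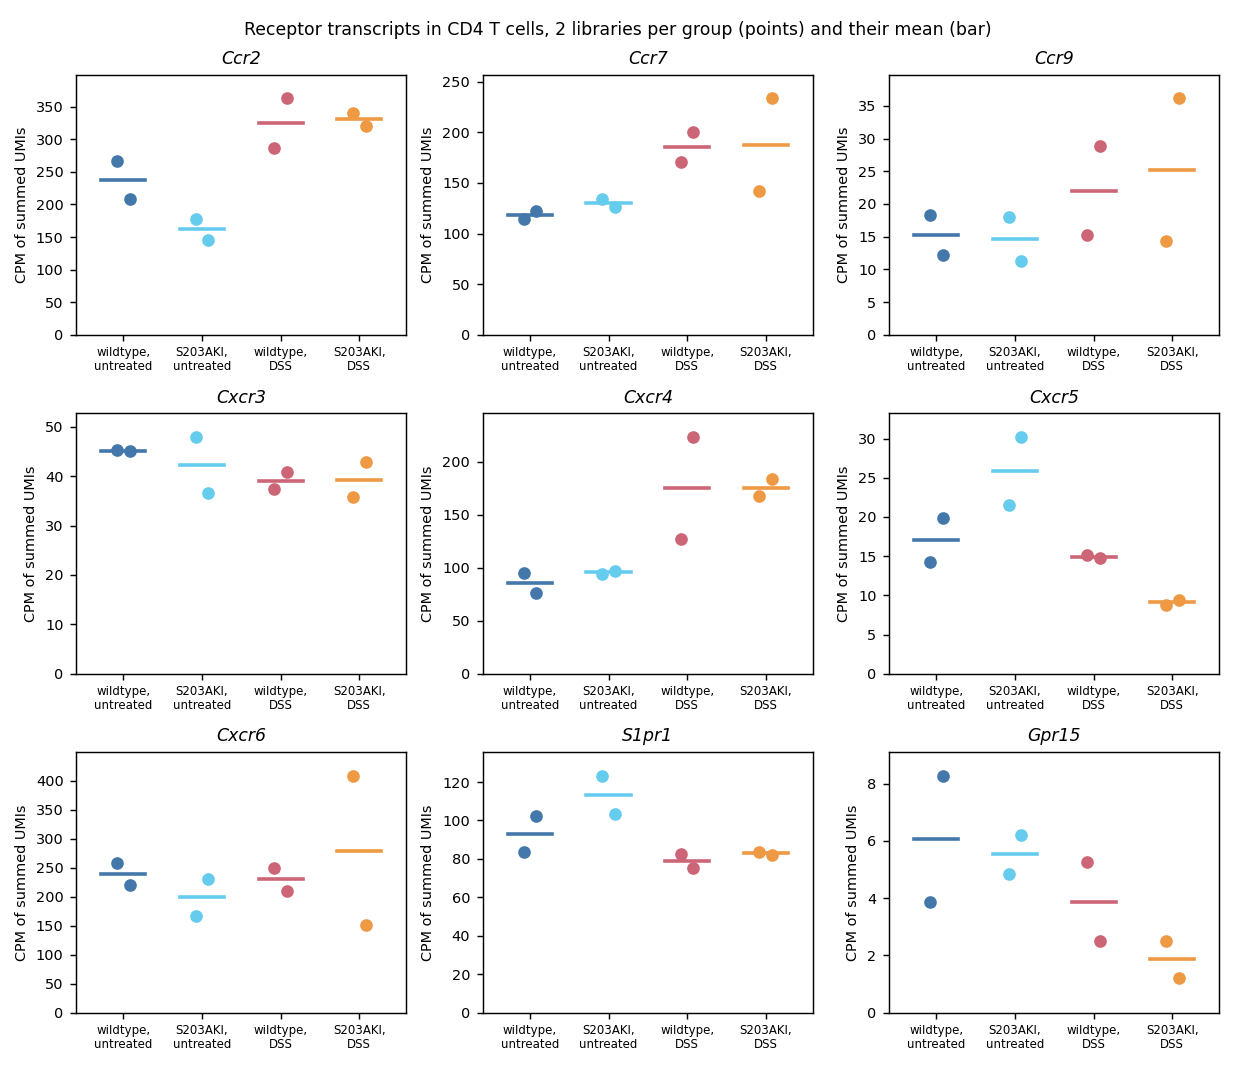
Level of each receptor (CPM of summed UMIs, linear axes from 0) in CD4 T cells of the 8 libraries; points are libraries (library 1 left, 2 right) and horizontal bars the mean of 2. Every DSS library is above every untreated library for Ccr2, Ccr7 and Cxcr4, and the S203AKI DSS libraries lie far apart for Cxcr6 (408 and 150 CPM) and Ccr9.

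The mix of T cells differed between libraries too. Treg-like cells, which carried the most Ccr2, were 14.2 ± 2.03% of T cells untreated and 26.6 ± 2.78% after DSS (mean ± SD, n = 4 libraries each). Tfh-like cells, which carried the most Cxcr5, were 16.1 ± 5.64% and 11.4 ± 1.43%, with overlap: untreated wildtype libraries had 9.99 and 13.9%, S203AKI 17.4 and 23.3%, and the DSS libraries 9.92 to 12.9%. The unnamed T cell clusters were 8.66 ± 1.97% and 14.2 ± 3.1%. When the level in each cluster was weighted by the same cluster shares in every library, the log2 ratio of the DSS to the untreated mean went from 0.71 to 0.39 for Ccr2 and from -0.84 to -0.54 for Cxcr5. It stayed near its size for Cxcr4 (0.95 and 1.01), Ccr7 (0.59 and 0.58) and S1pr1 (-0.35 and -0.32), and went from -1.02 to -1.58 for Gpr15. For the receptors not called it went from 0.66 to 0.47 for Ccr9, from 0.22 to 0.33 for Cxcr6 and from -0.16 to -0.24 for Cxcr3.

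Inside the classes, Cxcr4 was the receptor that rose in all of those tested. In Th1-like cells it was at 87.2, 72.2, 86.7 and 61.5 CPM untreated (wildtype 1 and 2, S203AKI 1 and 2) and 157, 297, 174 and 254 CPM after DSS, a rise of 1.47 on the log2 scale (SE 0.168, edgeR adjusted p = 2.15e-05). In Th17-like cells it was at 108, 100.2, 92.0 and 126 CPM untreated and 186, 292, 199 and 260 CPM after DSS (1.04, SE 0.155, adjusted p = 0.000816). The DSS libraries were above all untreated ones in both classes. It also rose in naive-like (1.15, adjusted p = 0.012), proliferating (0.76, adjusted p = 0.0126), Tfh-like (0.75, adjusted p = 0.00361) and Treg-like cells (0.64, adjusted p = 0.0232). In Th1-like cells the Cxcr4 rise was called in each genotype alone, 1.49 in wildtype (adjusted p = 0.00574, where 0.714% of genes were called) and 1.45 in S203AKI (adjusted p = 0.00166, background 6.54%). The averaged call in Th1-like and Th17-like cells held in 13 of 13 alternatives, while that in Treg-like cells was lost without any of 4 libraries (adjusted p 0.0693 to 0.132) and that in naive-like cells without S203AKI DSS library 2 (0.275), wildtype DSS library 2 (0.089) or untreated wildtype library 2 (0.115). The Th1-like call in wildtype alone was lost without wildtype untreated library 2 (0.19) or DSS library 2 (0.522), and that in S203AKI alone without S203AKI DSS library 2 (0.192).

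Ccr7, the lymph node receptor, rose in every class but naive-like cells, where it was highest (means of 499 CPM untreated and 602 CPM after DSS) and not called. The difference between classes was not tested. Its log2 fold change was 0.89 in Th17-like (SE 0.192, edgeR adjusted p = 0.00993), 0.77 in Th1-like (adjusted p = 0.0137), 0.73 in Tfh-like (adjusted p = 0.0139), 0.70 in proliferating (adjusted p = 0.00454) and 0.58 in Treg-like cells (adjusted p = 0.0129). In Th17-like cells the values were 38.7, 39.4, 39.1 and 21.4 CPM untreated and 84.3, 52.9, 55.1 and 54.8 CPM after DSS. The Ccr7 call was lost without any of 4 libraries in Th1-like cells (adjusted p 0.0576 to 0.609; the value was 0.22 without S203AKI DSS library 2) and without any of 3 in Th17-like (0.0591 to 0.116) and in Treg-like cells (0.0505 to 0.0873). It was also lost in DESeq2 in Th1-like and Th17-like cells (0.0966 and 0.0751) and with thinned cells in the latter (0.118). S1pr1 was called lower in Th17-like (-0.73, adjusted p = 0.0337) and Treg-like cells (-0.48, adjusted p = 0.045). In Th17-like cells it was at 53.8, 62.4, 51.6 and 35.2 CPM untreated and 31.4, 33.3, 34.1 and 18.8 CPM after DSS, without overlap. In thinned Th17-like cells after DSS, S1pr1 was seen in 2.26 ± 1.24%. This was close to the 1.87 ± 0.405% of fibroblast-like barcodes after DSS, so the size of the Th17-like value is not read. The Th17-like clusters, which differ in S1pr1, were mixed differently between libraries. The cluster with more S1pr1 was 16.2, 13.7, 6.18 and 4.92% of T cells untreated and 4.31, 4.85, 8.03 and 1.36% after DSS, and the Ccl20 and Il22 cluster 7.08, 10.3, 8.88 and 24.8% untreated and 12.6, 4.51, 24.3 and 4.24% after DSS. The former held most Th17-like cells in both untreated wildtype libraries, and its part in the Th17-like values was not tested. With coarser clustering the Th17-like S1pr1 value was -0.01, and neither class was called in DESeq2 (0.132 and 0.153) or with thinned cells (-0.63 and 0.236 in Th17-like, -0.16 and 0.723 in Treg-like). Each S1pr1 call was lost without any of 6 libraries (adjusted p 0.0538 to 0.153 in Th17-like, 0.067 to 0.206 in Treg-like).

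After DSS, Ccr9 was called higher in Treg-like and lower in Th1-like cells, and the difference between the classes missed the threshold. In Treg-like cells it was at 28.3, 26.9, 17.5 and 8.90 CPM untreated and 24.7, 52.5, 35.7 and 83.6 CPM after DSS (log2 1.30, SE 0.335, edgeR adjusted p = 0.0234). The wildtype DSS library 1 overlapped the untreated range. In Th1-like cells it was at 28.2, 9.62, 28.5 and 14.9 CPM untreated and 11, 6.39, 9.02 and 7.88 CPM after DSS (-1.44, SE 0.334, adjusted p = 0.00664), from 113 UMIs untreated and 45 after DSS. Only the untreated wildtype library 2 lay within the DSS range. The difference between the classes was chosen for a test after its values were seen: the log2 ratio of Treg-like to Th1-like Ccr9 (CPM plus 1) was 0.01 ± 0.97 in 4 untreated and 2.27 ± 0.97 in 4 DSS libraries, which missed 0.05 in a two-sided exact permutation test over the 8 libraries (p = 0.0571, smallest possible 0.0286). The Treg-like call was lost without any of 6 libraries (adjusted p 0.0573 to 0.128) and the Th1-like call without any of 4 (0.069 to 0.117). With thinned cells both were lost (0.0979 and 0.0778).

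The other class-level calls were few. In Treg-like cells, 5 of 9 receptors were called (background 10.5%), the fifth being Ccr2 at 0.35 (adjusted p = 0.0492 in edgeR), a call lost without any of 6 libraries (0.0515 to 0.22) and with thinned cells (0.111). In Th1-like cells, 5 of the 8 tested were called (13.9%), including Cxcr3 at -0.63 (adjusted p = 0.0378 in edgeR) and Gpr15. The Cxcr3 call was lost without any of 5 libraries (0.101 to 0.436; -0.34 and -0.36 without S203AKI or wildtype DSS library 2), in DESeq2 (0.237) and with coarser clustering (0.0654), and the Gpr15 call without any of 3 (0.106 to 0.214). Gpr15 in Th1-like cells went from 31 UMIs over the untreated libraries to 5 after DSS, with 0 in both S203AKI DSS libraries, so no fold is given. It met the filter on low counts through untreated libraries only (mean 6.57 CPM, against 1.27 after DSS). A receptor let in that way could only be called lower, so its call is not read as a result. In Th17-like cells, 3 of 7 were called (5.16%), and in naive-like cells 2 of 7 (6.13%): Cxcr4 and Cxcr6, the latter at 45.6, 83.2, 48.1 and 49.6 CPM untreated and 39.6, 23.4, 35.3 and 15.2 CPM after DSS (-1.23, edgeR adjusted p = 0.0116). In naive-like cells Cxcr6 lay at the fibroblast-like background, each seen in 2.42% of thinned cells, so this lower value is not read as a change in expression. The call was lost without S203AKI DSS library 2 (0.198) or untreated wildtype library 2 (0.13), and with coarser clustering the value was -0.15. In the Tfh-like cluster, Cxcr5 was at 85.3, 91.8, 77.0 and 84.4 CPM untreated and 69.9, 61.8, 51.1 and 50.8 CPM after DSS, without overlap (-0.57, adjusted p = 0.0235 in edgeR; background 6.39%). Proliferating cells added Ccr2 at 0.80 (adjusted p = 0.00674 in edgeR; background 10.6%).

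**Figure D4:**
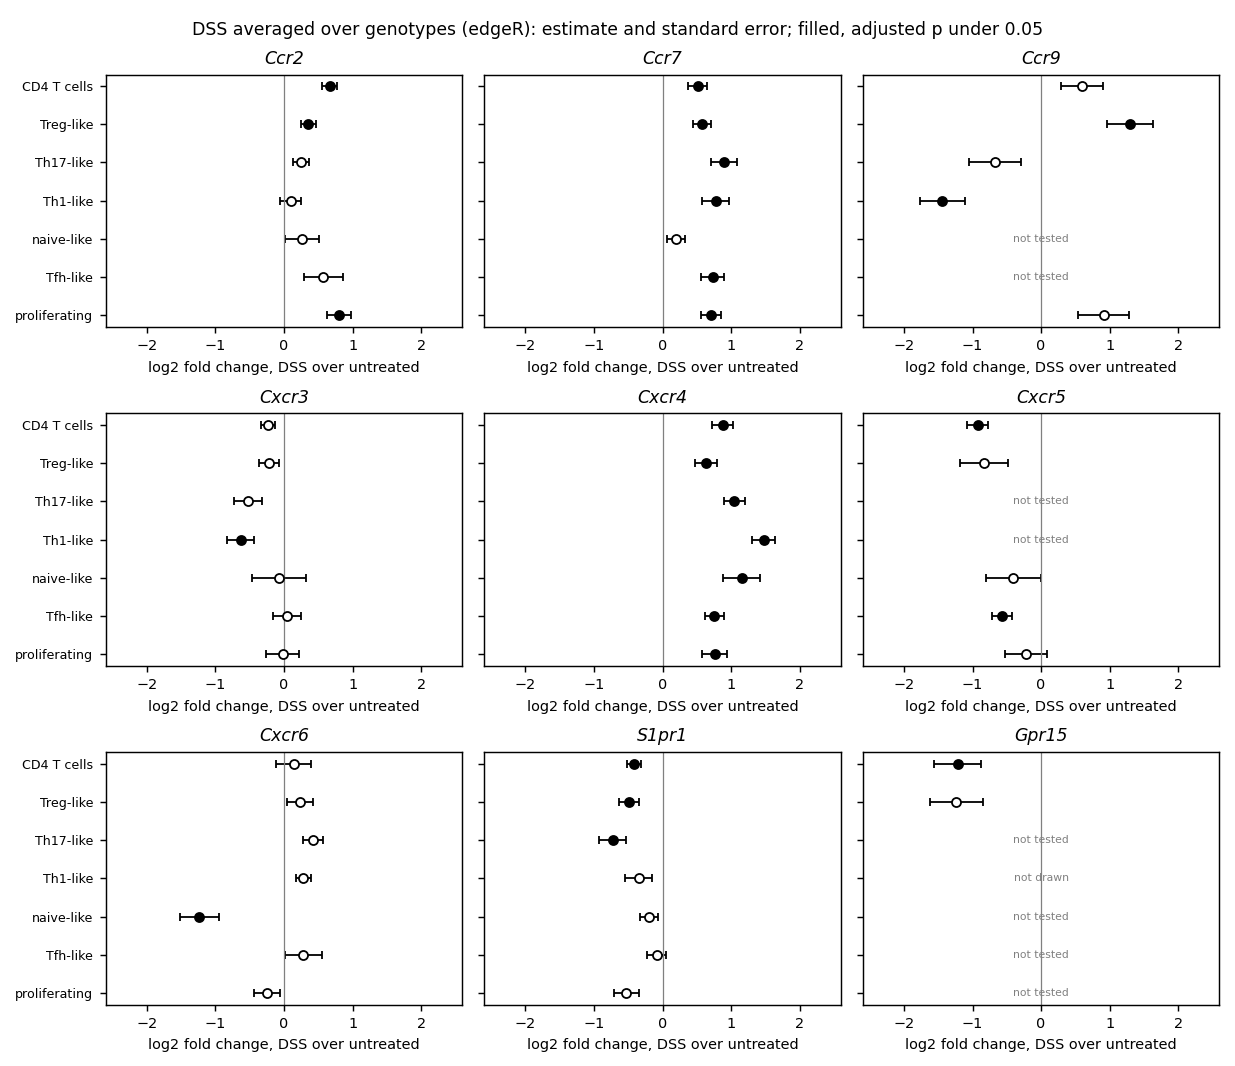
Log2 fold change of each receptor after DSS, averaged over genotypes, in all CD4 T cells and in 6 classes (points, edgeR; bars, SE; filled, adjusted p under 0.05; "not tested" marks receptors below the filter on low counts, and Gpr15 in Th1-like cells is not drawn because 2 libraries had no UMI). Cxcr4 is filled in all 7 rows, and Ccr9 is at 1.30 in Treg-like and -1.44 in Th1-like cells.

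In single genotypes of the classes, DSS in S203AKI also called Ccr9 in Treg-like cells (log2 2.19, edgeR adjusted p = 0.0301; background 2.34%), Cxcr4 in Th17-like cells (0.98, 0.0196; 2.56%), Ccr7 (1.02, 0.0195) and Cxcr4 (0.70, 0.046) in Tfh-like cells (2.61%), Ccr2 in proliferating cells (1.02, 0.0436; 2.12%), and Ccr7 (1.27, 0.01), Ccr9 (-1.58, 0.0394) and Gpr15 in Th1-like cells. Wildtype added Ccr7 in proliferating cells (0.95, 0.0131; 3.17%). The Treg-like Ccr9 call was lost without any of the S203AKI untreated libraries, S203AKI DSS library 2 or the wildtype untreated libraries (adjusted p 0.0543 to 0.254), and the Th1-like Ccr7 value in S203AKI fell to 0.16 without S203AKI DSS library 2. The Th1-like Ccr9 call in S203AKI was lost without any of 5 libraries (0.0569 to 0.52), and the Th17-like Cxcr4 call without S203AKI untreated library 1 (0.224), untreated library 2 (0.079) or DSS library 2 (0.0924). The Th1-like Ccr7 call in S203AKI was also lost without S203AKI untreated library 1, where its value was 0.996. That of Gpr15, which met the filter on low counts through untreated libraries only and is not read as a result, was lost without S203AKI untreated library 2 or DSS library 2. The Tfh-like and proliferating tests were not run under alternatives.

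Within single genotypes the 2-against-2 comparisons called less. In wildtype mice none of the 9 receptors was called after DSS in all CD4 T cells (lowest adjusted p 0.0828 in edgeR, 3 at an unadjusted p under 0.05), where 0.389% of genes were. The log2 fold changes were 0.96 for Cxcr4, 0.58 for Ccr7, 0.44 for Ccr9, 0.38 for Ccr2, -0.12 for Cxcr6, -0.26 for Cxcr5, -0.28 for Cxcr3, -0.30 for S1pr1 and -0.68 for Gpr15. DESeq2 called 1. In S203AKI mice 2 were called, Ccr2 (log2 0.95, SE 0.156, adjusted p = 0.0206) and Cxcr5 (-1.58, SE 0.217, adjusted p = 0.0134), where 4.75% of genes were. Not called were Cxcr4 (0.80), Ccr9 (0.75), Ccr7 (0.45), Cxcr6 (0.40), Cxcr3 (-0.17), S1pr1 (-0.53) and Gpr15 (-1.76). Each of the 2 calls was lost without S203AKI untreated library 1 (adjusted p = 0.0922 and 0.0573 for Ccr2 and Cxcr5), untreated library 2 (0.132 and 0.0653) or DSS library 2 (0.067 and 0.0615). These comparisons share their libraries with the average given above. The difference between the genotypes in the DSS response was tested as an interaction and no receptor was called (lowest adjusted p 0.972, the 2 at an unadjusted p under 0.05 being Cxcr5 and Ccr2), so the calls in S203AKI alone do not show a different response.

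No receptor differed between S203AKI and wildtype T cells at the adjusted threshold. In untreated mice the log2 differences ran from -0.55 to 0.60 (lowest edgeR adjusted p 0.69, 2 receptors at an unadjusted p under 0.05), and after DSS from -1.22 to 0.26 (adjusted p = 1, 2 at an unadjusted p under 0.05). The untreated values (S203AKI minus wildtype) were 0.60 for Cxcr5, 0.28 for S1pr1, 0.16 for Cxcr4, 0.14 for Ccr7, -0.06 for Ccr9, -0.10 for Cxcr3, -0.14 for Gpr15, -0.27 for Cxcr6 and -0.55 for Ccr2. After DSS they were 0.26 for Cxcr6, 0.25 for Ccr9, 0.05 for S1pr1, -0.72 for Cxcr5 and -1.22 for Gpr15, with Ccr2, Ccr7, Cxcr3 and Cxcr4 within 0.014 of 0. Of all genes 0% were called in both comparisons and in the interaction, and DESeq2 called 16 genes in the untreated comparison and 0 in the other 2. In Th17-like cells, 0 of 7 receptors tested were called in untreated mice (0.18% of genes) or after DSS (0%). Nor was any receptor called for genotype in untreated Treg-like (0% of genes called), Th1-like (0.0877%), naive-like (0.23%), Tfh-like (0.193%) or proliferating cells (0.0376%), or after DSS in any of these (0%). With 2 libraries a group, differences of the size seen between replicate libraries cannot be detected.

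Related genes of T cell traffic were counted from lists of traffic genes. Among 15 other chemokine receptors, 10 could be tested in CD4 T cells and none was called after DSS, where 18.3% of all genes were (9.1% higher and 9.23% lower). Of 15 tested genes of S1P signalling and egress (19 in the list), 2 rose and 3 fell. Klf2, the factor known to drive S1pr1, went from 214 ± 22.5 to 152 ± 6.16 CPM (log2 -0.57, edgeR adjusted p = 0.00564), the DSS libraries all below the untreated ones. The G protein regulators Rgs1 (-0.50) and Rgs10 (-0.62) fell, and the receptor kinase Grk2 (0.40) and the S1P lyase Sgpl1 (0.33) rose. Of 8 adhesion genes, 3 rose and 1 fell. Itgae, the alpha chain that pairs with beta 7 to bind epithelial E-cadherin, went from 12.6 ± 1.68 to 42.3 ± 4.31 CPM (1.67, adjusted p = 0.000321) and was also called in wildtype (1.73, adjusted p = 0.00306) and S203AKI mice alone (1.60, adjusted p = 0.0066). It was among the leading genes of both Treg-like clusters, whose share was higher after DSS, and it also rose inside Treg-like cells, from 51.9 ± 12.6 to 121 ± 11.3 CPM (1.19, adjusted p = 0.000395). Itga4 (0.35) and the selectin ligand Selplg (0.61) rose and the collagen receptor chain Itga1 (-0.96) fell.

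A list of ligand genes was read in the sum of all barcodes of a library, which also holds fibroblasts, macrophages and other cells. For Ccl8, which is in the list, none of the 9 receptors is named here. Of 13 tested, 6 were called after DSS, where 23.3% of all genes were. Cxcl13, the ligand of Cxcr5, went from 42.9 ± 17.6 to 369 ± 268 CPM (log2 3.07, SE 0.643, edgeR adjusted p = 0.0189), and 2610528A11Rik, which encodes a ligand of Gpr15, from 0.708 ± 0.579 to 4.83 ± 2.73 CPM (2.67, adjusted p = 0.012). For both pairs the ligand over all barcodes was higher and the receptor in T cells lower after DSS. Neither receptor was called in the sum of all barcodes. With T cells by gate both receptor calls were lost (edgeR adjusted p = 0.0784 for Cxcr5 and 0.362 for Gpr15). A link within the pairs was not tested. The other 4 called ligands fell: the Cxcr3 ligands Cxcl9 (168 ± 64.9 to 44.3 ± 14.5 CPM, -1.91, adjusted p = 0.0119) and Cxcl10 (331 ± 67.4 to 173 ± 38.5 CPM, -0.90, adjusted p = 0.0175), the Cxcr6 ligand Cxcl16 (177 ± 36.1 to 125 ± 8.79 CPM, -0.48, adjusted p = 0.0382) and Ccl8 (305 ± 85.3 to 120 ± 29.4 CPM, -1.32, adjusted p = 0.00974). Leaving out single libraries moved the count of called ligands between 0 and 7. Ligand UMIs were also found inside T cell sums, where Cxcl13 went from 0.433 ± 0.088 to 12.7 ± 9.71 CPM, and its part in the receptor values was not tested.

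Some of the receptors were not particular to T cells among the kept cells. Ccr7 was at 679 CPM in a cluster led by S100a8, Il12b and Ccl22 and at 471 CPM in an unnamed cluster led by Kcnk1, Chad and Il22, levels like that of naive-like T cells. Ccr9 was at 1278 CPM in 51 cells led by Siglech, Cxcr6 at 331 CPM in the Il22 cluster, Cxcr4 at 189 CPM in macrophage-like cells and S1pr1 at 199.9 CPM in endothelial-like cells. These are pooled over libraries and have no replicate error. In the sum of all barcodes, Ccr2 (log2 1.09), Ccr9 (1.05), Cxcr4 (1.01) and Ccr7 (0.65) rose after DSS, where 23.3% of genes were called, and Cxcr6 (0.64), Cxcr3 (0.20), S1pr1 (-0.08), Cxcr5 (-0.30) and Gpr15 (-0.35) were not called. The Ccr7 call there was lost without any of 5 libraries (edgeR adjusted p 0.0503 to 0.108) and the Ccr9 call without any of 3 (0.0583 to 0.105).

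Across 78 sums of a T cell cluster in a library, the genes most like each receptor (Pearson r of log2 CPM, 5167 genes, given as a description because the sums share libraries) were as follows. Cxcr6 was most like Furin (r = 0.961), D16Ertd472e (0.915) and Rgs1 (0.907). Ccr2 was most like Lamc1 (0.916), Socs2 (0.911) and Fam129a (0.887). S1pr1 was most like Klf2 (0.869), followed by Rps16 (0.852) and Rps24 (0.846), and Ccr7 was most like Zfp281 (0.853), Actn1 (0.79) and Slamf6 (0.789). These 4 receptors had near neighbours in expression. Cxcr4 was most like Sla (0.804), Celf2 (0.766) and Vps54 (0.759), and Cxcr5 like Asap1 (0.784), Izumo1r (0.769) and Sh2d1a (0.764). The remaining receptors had weaker partners, Ccr9 with Lztfl1 (0.682), Ccr2 (0.62) and Glipr2 (0.617), Gpr15 with Traf1 (0.662), Selenow (0.615) and Ifi27 (0.601), and Cxcr3 with Gimap7 (0.589), Dph3 (0.543) and Ugp2 (0.518). Lztfl1 overlaps Ccr9 on the opposite strand, and reads of the pair cannot be told apart without strand. Among the receptors themselves, r was 0.715 for Ccr2 and Cxcr6, 0.605 for Ccr7 and S1pr1, -0.748 for Ccr7 and Cxcr6 and -0.767 for Cxcr5 and Cxcr6.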

How the data were processed

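The authors deposited, per library, UMI counts per gene and barcode that were not normalized, and a list of the cells they kept. How cells were chosen is not given in the sources used here. The submitters' processing notes name Cell Ranger 3.1.0, Seurat 4.0.1 and mm10. Gene symbols come from the deposited row list, and 98.5% of 30934 matched IDs carried the listed symbol in the reference. Tables held 10563 to 16133 barcodes and 34497509 to 46960005 UMIs per library.

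Kept cells were scaled to 10000 UMIs and log-transformed, and clustered in scanpy 1.11.5 (1798 variable genes after removal of receptors, 30 principal components, 15 neighbours, Leiden resolution 1). Clusters were named from marker lists. UMI counts were summed per library and population, and tested with edgeR 4.0.16 quasi-likelihood (TMM, filterByExpr, 4 group means over 8 libraries, Benjamini-Hochberg over all genes). The test was also run on simulated data, and the outcome is not given here. Alternatives were DESeq2 1.42.0, RLE factors, no filter, thinned cells, T cells by gate, coarser clustering, only the libraries compared, and each library left out. Fixed cluster shares, the Ccr9 test between classes, and the Tfh-like and proliferating tests were added after the data were seen. The 9 receptors and the gene lists were chosen with earlier results of these data known. The rule was to name all 9 receptors in every comparison. Within the Treg-like, Th17-like, Th1-like and naive-like classes, those not called are given as counts for DSS averaged over genotypes. For DSS in Tfh-like and proliferating cells, and in single genotypes of the classes, only called receptors are named. List genes are named where called after DSS in CD4 T cells (ligands, all barcodes), and for each receptor the 3 most alike genes. The targeted gene and a further split of the T cells are not reported here. The p-values of the group comparisons measure the spread between 2 libraries a group. Those of the Foxp3, Il17a and Ifng splits measure the spread of the difference over 8 libraries. The Ccr9 permutation test compared 4 with 4 libraries, both genotypes together. Intervals for counting error are not given where libraries are replicates.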

Additional observations from a re-analysis of the deposited data

Results flagged for a closer look

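Cxcr4 in CD4 T cells stood at 75.8 CPM in the untreated wildtype library 2, below the 93.9 to 96.9 CPM of the other 3 untreated libraries. Its gap to the next library, as a share of the range over the 4, exceeded Dixon's 95% critical value. Over the 9 receptors, 18 such groups of 4 libraries were examined and chance alone sets apart about 1 in 20. Leaving this library out changed the DSS fold change of Cxcr4 from 0.88 to 0.81 (log2).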

How the results depend on the processing

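No paired analysis was run because the titles give each library a number of its own and no number is shared between groups. Within each treatment, wildtype and S203AKI titles carry neighbouring numbers. The labels do not say what the numbers mean. At fixed cluster shares, Ccr9 in neighbouring titles (wildtype and S203AKI) was at 18.1 and 17.8, 13.5 and 10.0, 14.1 and 14.2, and 26.1 and 28.2 CPM. Cxcr6 was less alike, at 243.6 and 182.5, 212.9 and 191.0, 265.8 and 318.4, and 272.5 and 186.2 CPM. The other receptors are not compared here. Whether the values follow the numbers was not tested. The genotype, interaction and Ccr9 permutation tests took no account of the numbers. In CD4 T cells, the count of receptors called after DSS, averaged over genotypes, was 6 of 9 (18.3% of genes). It fell to 3 of 9 with T cells by gate (21.1% of genes). In wildtype alone it was 0 and became 1 in DESeq2, 1 with T cells by gate and 2 with no filter, where 1.04%, 2.16% and 4.41% of all genes were called. In S203AKI alone it was 2 and became 4 in DESeq2 and 8 with no filter (2.87% and 8.38% of genes). With no filter, 1 receptor was called for genotype in untreated mice and 1 for the interaction, against 0 (0.759% and 0.382% of genes). In Treg-like cells 5 of 9 (10.5% of genes) became 2 of 8 with thinned cells (5.67%). In Th17-like cells 3 of 7 (5.16% of genes) became 1 of 6 in DESeq2 and 5 of 9 with no filter (1.04% and 3.95%). In Th1-like cells 5 of 8 (13.9% of genes) became 1 of 6 in DESeq2 and 3 of 7 with thinned cells (2.25% and 10.6%). The 5 include Gpr15, which met the filter on low counts through untreated libraries only. In naive-like cells 2 of 7 (6.13%) became 0 in both (0.682% and 4.23%), where DESeq2 and the thinned counts allowed 2 receptors to be tested. With thinned cells the Foxp3 split called 4 of 8 in place of 8 of 9, where 17.0% of genes were called in place of 36.4%. The Ifng split called 3 of 7 in place of 5 of 9 (12.7% of genes in place of 17.7%). The cause was not tested.

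With each library left out in turn, the counts ran from 0 to 7 after DSS averaged over genotypes, 0 to 1 in wildtype, 0 to 3 in S203AKI, 0 to 6 in Treg-like, 1 to 4 in Th17-like, 1 to 5 in Th1-like and 0 to 2 in naive-like cells, 7 to 8 for Foxp3, 6 to 7 for Il17a and 5 to 6 for Ifng, and 0 to 7 for the ligands. They stayed at 0 for both genotype comparisons and the interaction. Among the 9 receptors after DSS averaged over genotypes in CD4 T cells, and the called receptors and ligands elsewhere that were refitted, 1 value changed sign: Cxcr6 in CD4 T cells without S203AKI DSS replicate 1, at -0.30 (adjusted p = 0.147, edgeR), and without S203AKI DSS replicate 2 it was 0.43. Of 46 values of receptors not called in the other comparisons of CD4 T cells, the splits and the sum of all barcodes, 644 refits gave 44 changes of sign, 22 of them for genotype after DSS, and none of the 44 was called. Tfh-like and proliferating values were not refitted. Genes called over the whole table after DSS were 2028, against 1306 in DESeq2, 1202 with thinned cells and 193 to 2015 with a library left out. Alternatives without clusters led by heat-shock genes could not be applied, since no T cell cluster had 2 such genes among its 10 leading ones. Depth limits what can be read of Gpr15, Cxcr5 and Ccr9, with 258, 1020 and 1390 UMIs in T cells.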
